A study of Mus musculus with 161 samples.

Results

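Densely clustered CTCF peaks are the autosomal peaks of the FLAG-CTCF list that stand in a run of at least 3 consecutive peaks, with each peak midpoint at most 5 kb from the next on the same chromosome (mm9). The rule found 10760 such peaks, in 3021 runs, among 48552 autosomal peaks and 49682 listed peaks in all. It used only the positions of the peaks, so the number, size and span of the runs are a description of the list, and the genes and sequences in the runs are what the rule did not use.

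The study asked which domains of CTCF fold the genome, in E14Tg2a mouse embryonic stem cells whose CTCF carries an auxin-inducible degron (CTCF-AID, with Tir1). The peaks come from 1 clonal line, EN133.10, which also carries rtTA3G and a doxycycline-driven transgene (TetO) for full-length FLAG-tagged CTCF. The study used this higher-expressing clone because its transgene level was closest to that of the clones lacking the CTCF N terminus. Per the study, even this level was well below that of endogenous CTCF. The 2 FLAG ChIP-seq libraries of EN133.10 were made after 2 days in 500 µM indole-3-acetic acid together with 1 µg/ml doxycycline. Indole-3-acetic acid is the auxin analog that depletes the endogenous CTCF-AID protein. The list holds the intervals found in both libraries, without a height or a p-value, so it has no replicate error, no depth of its own and no control group, and every value below describes 1 list.

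CTCF is a zinc-finger protein that binds a long DNA motif and stops cohesin as that ring complex extrudes chromatin loops. Its motif has a direction, and cohesin is held best by sites that point toward the loop, so that loops tend to join motifs in convergent orientation. Several sites close together are known at strong boundaries of topologically associating domains and at gene clusters whose promoters or segments are chosen one at a time.

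To show what such a run looks like in sequence, the run with the most peaks is given first. It lay at chr10:79231246-79258932 and held 12 peaks over 27687 bases, across Fstl3 (a secreted follistatin-like antagonist of activin), Prss57 (a serine protease of neutrophil granules) and Palm (paralemmin, a phosphoprotein of the plasma membrane). The sequence CCANNAGNNGGC, the 12-base core of the CTCF motif with 4 free positions, was searched on both strands. It matched at 5 distinct places in the peaks of this run, 3 on the forward and 2 on the reverse strand. Of these, 4 are written 5′ to 3′ in the direction of the motif, with the core in capitals and 9 bases on either side.
chr10:79231326-79231355 (+): cggcattgaCCACCAGAGGGCacatggccc
chr10:79237806-79237835 (+): ctgaggaggCCAGAAGAGGGCggcagattc
chr10:79246827-79246856 (-): gaggcacgtCCAGTAGGGGGCgcaacagat
chr10:79256266-79256295 (+): cgtctgcggCCAGCAGGAGGCgcgcgcggg

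Read from the start of the run, the cores pointed right, right, left, left and right, and the first of them lay 89 bases and the last 25029 bases into the run. The midpoints of neighbouring peaks in this run were between 42 and 4946 bases apart, with a median of 2568. Of the 12 peaks, 8 lay within 1 kb of the transcription start of an annotated transcript and 4 were CpG-rich, defined as at least 50% G+C with an observed-over-expected CpG ratio of at least 0.6. By midpoint, 2 peaks were in exons, 6 in introns and 4 between genes. Of these 12 listed peaks, 6 overlapped another listed peak, and merging peaks whose intervals overlapped or whose midpoints were within 500 bases left 8 separate sites.

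Overlapping peaks of this kind, mostly doublets, were common in the list, and they bear on every count that follows. Of 48533 distances between neighbouring autosomal midpoints, 4548 (9.37%) belonged to intervals that overlapped, and their median distance was 109 bases. Inside the runs the overlapping neighbours made up 2047 of 7739 distances (26.5%), and 3926 of the 10760 run peaks (36.5%) overlapped another listed peak. In 796 of the 4548 overlapping neighbours (17.5%) a single core match lay in both intervals, in 930 (20.4%) a single match lay in 1 of them, in 130 (2.86%) there was more than 1 match, and in 2692 (59.2%) there was none. In the whole list, 8 lines had the same coordinates as another line, and these were kept and counted as peaks. The list does not say which library gave each interval, and whether doublets are separate binding events was not tested.

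In the unequal bins of the plot of spacing, counts had a local maximum between 100 and 200 bases and another between 20 and 50 kb. The bins widen with distance, so these maxima depend on the bins and are not to be read as preferred spacings. Inside the runs the median distance was 1338 bases, with quartiles of 188 and 2978.5, against a median of 14872 bases over all autosomal neighbours. The 5 kb limit of the rule fell in a smooth stretch of that distribution. There were 725 distances above 4500 and up to 5000 bases, and 703 above 5000 and up to 5500. The largest distance inside a run was 4997 bases and the smallest that ended one was 5001 bases.

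**Figure D1:**
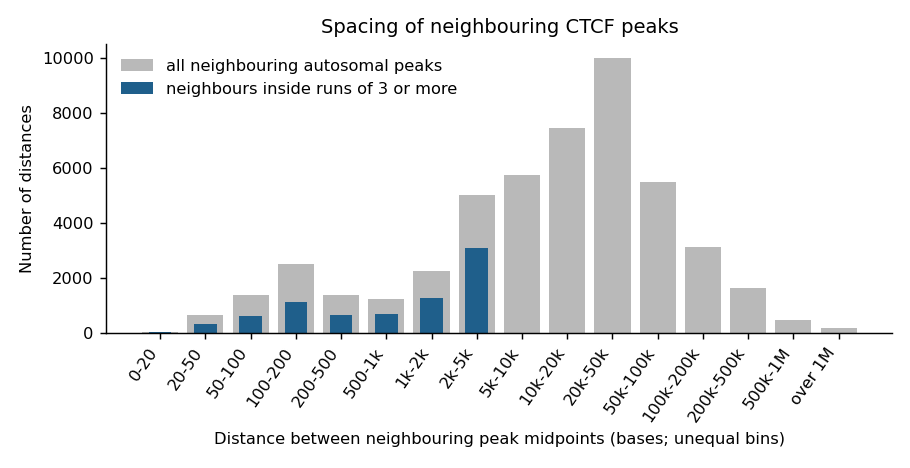
Number of neighbouring autosomal peak pairs (vertical axis) by the distance between their midpoints in bases (horizontal axis, unequal bins); grey bars count all neighbours and blue bars those inside runs of 3 or more. The grey bars rise to 2505 between 100 and 200 bases, dip to 1242 between 500 and 1000 bases and reach 10017 between 20 and 50 kb. Bin widths differ, so bar heights are not densities.

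Most runs were short. Of the 3021 runs, 1979 (65.5%) held 3 peaks, 664 held 4 and 224 held 5. A further 154 runs (5.10%) held 6 or more peaks, 32 held 8 or more, and the mean was 3.56 peaks per run. The span from the first base of the first peak to the last base of the last had a median of 4206 bases. Its quartiles were 2487 and 6126. The 95% order-statistic interval of the median was 4083 to 4354, which reflects only the number and spans of runs in this list. Spans ran from 257 to 27687 bases. They were under 1 kb in 224 runs and over 10 kb in 139 runs. Runs of 3 had a median span of 3445 bases, runs of 4 of 5255.5 and runs of 5 of 7640.5. Together the runs covered 13902 kb, or 0.581% of the sequenced autosomes. The remaining autosomal peaks comprised 13372 in pairs, at most 5 kb apart, and 24420 with no other peak within 5 kb; 4162 of the latter were more than 50 kb from any other.

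Merging near-coincident peaks, a choice that changes what counts as a member, left 1536 runs with 5237 sites, which is 12.3% of 42625 merged autosomal sites against 22.2% of listed peaks. Counted inside the listed runs, 1550 (51.3%) contained at least 3 sites, 1294 (42.8%) contained 2 and 177 (5.86%) contained 1. Among the 1979 runs of 3 peaks the corresponding counts were 680, 1128 and 171. No merged run held more than 8 sites. The median span of merged runs was 5996.5 bases and their median distance 2454.5 bases, both larger than in the runs as listed.

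**Figure D2:**
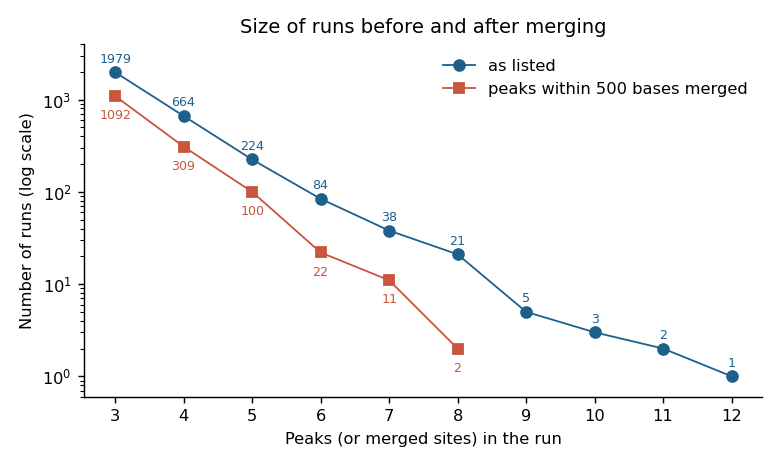
Number of runs (vertical axis, log scale) by the number of peaks or merged sites they hold (horizontal axis), for peaks as listed (blue circles) and with peaks within 500 bases merged (red squares). The 1979 runs of 3 listed peaks compare with 1092 runs of 3 merged sites, and runs of 9 or more occur only as listed.

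The next runs by number of peaks differed in their surroundings. The second, at chr12:114454240-114462717, packed 11 peaks into 8478 bases and overlapped no annotated gene. Its nearest transcription start belonged to a U6 small nuclear RNA copy 1880 bases away. The flanking protein-coding models were looked up after the values were seen. They were Tmem121 (a transmembrane protein gene) 26.5 kb before the run and Gm900 46.7 kb after it. Neighbouring midpoints there had a median distance of 677.5 bases and never exceeded 1967. All 11 peaks were intergenic, none was CpG-rich, and merging left 8 sites. Only 2 distinct core matches were found, both on the forward strand.

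The third run, chr2:167500738-167514625, held 11 peaks over 13888 bases in Tmem189 (the desaturase that makes plasmalogens) and up to Cebpb (a bZIP transcription factor of adipocyte and myeloid differentiation). Its last 3 peaks were within 1 kb of the Cebpb start and had 74% to 81% G+C, against 42% to 60.5% in the other 8. It merged to 6 sites. Its 5 core matches are shown to set their strands beside those of the run on chromosome 10: the first pair, at the left end, read on the reverse strand and the other 3 on the forward strand.
chr2:167500811-167500840 (-): ttttgctccCCACTAGGCGGCattagactg
chr2:167504285-167504314 (-): atctgctccCCAGAAGAGGGCgccagatct
chr2:167506343-167506372 (+): ttgcagaggCCACAAGAGGGCatcggacca
chr2:167510815-167510844 (+): caggccctgCCACGAGATGGCagcatgcac
chr2:167514160-167514189 (+): ccgcgtcctCCAGCAGGGGGCgggcggcgg

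The tenth run showed the same layout on a larger number of matches. It lay at chr11:94961797-94980112, 1291 bases before Dlx3 (a homeobox gene of skin, tooth and placenta), and its 9 peaks were all intergenic. It had 6 distinct matches, the most among the 10 runs. The 3 at the left read on the reverse strand and the 3 at the right on the forward strand, that is, outward from the run, and 3 of the 6 had the identical core CCAGAAGAGGGC.
chr11:94964817-94964846 (-): gcctgcaggCCAGAAGAGGGCaccagatcc
chr11:94968339-94968368 (-): ccatggtcaCCACCAGGTGGCaggcccgcc
chr11:94970085-94970114 (-): acctgtgtgCCAGAAGAGGGCattggatcc
chr11:94973583-94973612 (+): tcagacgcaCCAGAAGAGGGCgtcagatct
chr11:94978441-94978470 (+): ttcttatggCCACTAGATGGCgccagttcc
chr11:94978588-94978617 (+): ggaccagggCCATCAGCAGGCacctcttct

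The other large runs were as varied. At chr4:151504974-151518033, 10 peaks lay inside Espn (espin, an actin-bundling protein of hair-cell stereocilia), 3 of them in exons and 7 in introns. None of the 10 contained a core match, which says only that these letters were not in those intervals. At chr5:113596837-113610917, 10 peaks were all intergenic, 4466 bases from the start of 2900026A02Rik, with 1 match on the forward and 4 on the reverse strand. The run at chr1:88417040-88436499, 10 peaks over 19460 bases, included Ptma (prothymosin alpha, an abundant acidic nuclear protein). No peak of that run was within 1 kb of a start, although the run as a whole reached across the gene.

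At chr11:103186570-103195630, 9 peaks lay across the 3′ end of Arhgap27 (a GTPase-activating protein), 5 of them beyond the gene, and 6 of the 9 overlapped another peak. Both runs on chromosome 15 also had 9 peaks. That at chr15:103003039-103016515 was intergenic, 14656 bases from the start of Smug1 (a uracil-DNA glycosylase), with a mean of 62.9% G+C and all 3 of its matches on the reverse strand. That at chr15:102286361-102301755 overlapped Prr13 (a proline-rich protein gene) and Pcbp2 (a poly(C)-binding RNA regulator). It also overlapped a U6 copy and the non-coding model Gm17403, and 6 of its 9 peaks were within 1 kb of a start.

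**Figure D3:**
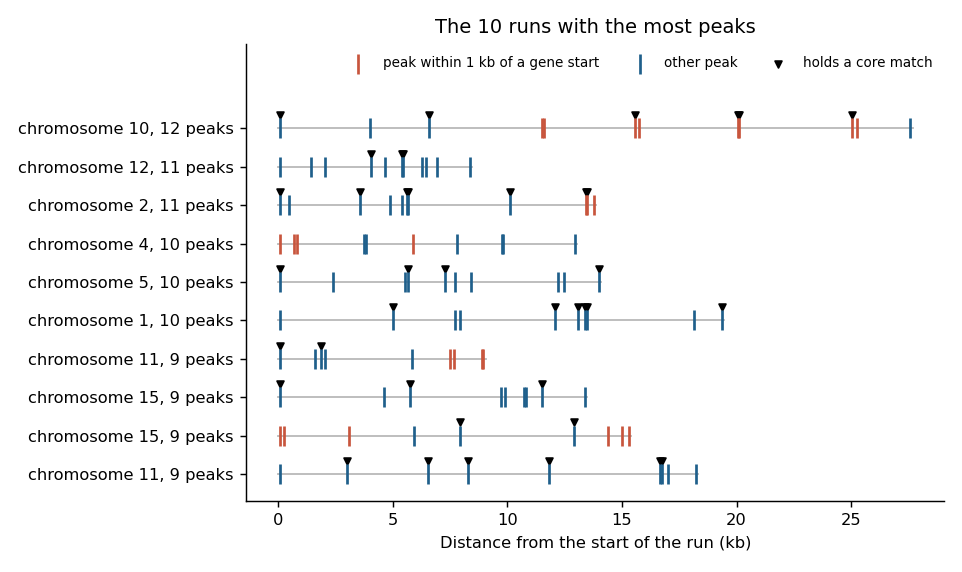
Positions of peaks (ticks) in the 10 runs with the most peaks, in kb from the start of each run; red ticks mark peaks within 1 kb of an annotated gene start, blue ticks other peaks, and black triangles peaks that hold a core match. The runs extend from 8478 to 27687 bases, ticks that merge are overlapping peaks, and the Espn run on chromosome 4 has no triangle.

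The extremes of span were of a different kind. After the runs on chromosomes 10 and 1, the third longest was at chr5:135579973-135599422, where 7 peaks extended over 19450 bases, 1 of them intergenic and 6 in introns of Mlxipl (the carbohydrate-response transcription factor ChREBP). Its neighbouring midpoints were 2244 to 4253 bases apart, no peaks overlapped, and all 7 remained after merging. The 3 shortest runs each consisted of 3 overlapping intervals that merged to 1 site. They spanned 257 bases at chr3:90270432-90270688 near the start of Npr1 (a natriuretic peptide receptor), 291 bases at chr7:151015440-151015730 in an exon of Dhcr7 (the last enzyme of cholesterol synthesis), and 299 bases at chr2:29724543-29724841, where Cercam (a cell adhesion molecule) and 2600006K01Rik overlap.

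Runs were found on every autosome. Their number varied from 66 on chromosome 18 to 282 on chromosome 5, and their density from 0.729 per sequenced Mb on chromosome 3 to 2.37 on chromosome 11, against 1.26 over all autosomes. The share of a chromosome's peaks that lay in runs was lowest on chromosome 6 (15.4%) and highest on chromosome 11 (27.4%), followed by chromosome 7 (26.9%), chromosome 5 (26.7%) and chromosome 19 (26.0%). On chromosome X, which the rule left out, the same spacing gave 29 runs with 100 of 1128 peaks (8.87%) and 0.179 runs per Mb. The cells are male and carry 1 X. X also had fewer listed peaks than any autosome, the fewest on an autosome being 1403 on chromosome 18. Whether the single X, or the density of listed peaks on X, bears on the lower share was not tested.

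Autosomes with denser peaks had larger shares of peaks in runs. Across the 19 autosomes the share in runs and the number of peaks per Mb had a Pearson r of 0.873 and a Spearman rho of 0.854, and r was 0.879 without the 2 chromosomes farthest from the median density. The share in runs and the number of protein-coding genes per Mb had r = 0.769 and rho = 0.746, and r was 0.680 without the 2 chromosomes farthest from the median gene density. Peaks per Mb and genes per Mb themselves had r = 0.853. Merged sites gave r = 0.888 with peak density and 0.748 with gene density, which were 0.857 and 0.579 without the corresponding 2 chromosomes. These are descriptions over 19 chromosomes of 1 list, and a denser chromosome has closer peaks whatever else holds. Chromosome 6 stood lower than its density neighbours, with 17.9 peaks per Mb and 15.4% in runs, whereas chromosome 1, with 16.8 peaks per Mb, had 19.7%.

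**Figure D4:**
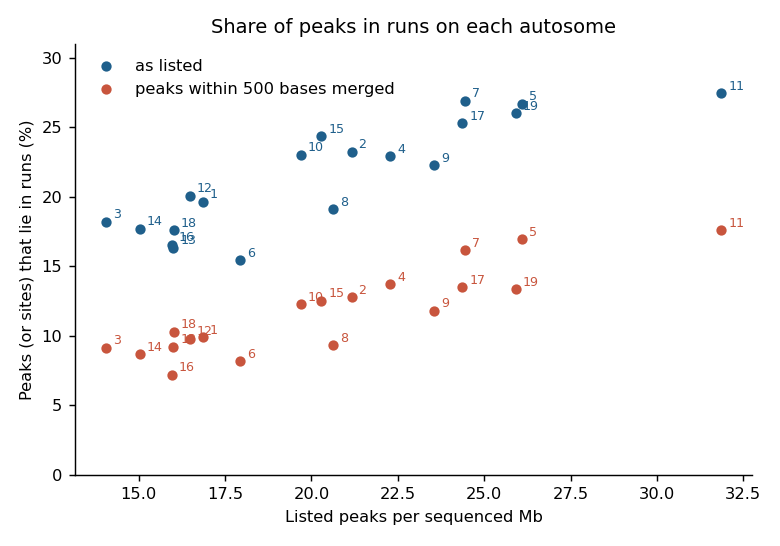
Share of peaks or merged sites that lie in runs (vertical axis, %) against listed peaks per sequenced Mb (horizontal axis) for each of the 19 autosomes, labelled by number; blue points are peaks as listed and red points merged sites. Shares extend from 15.4% to 27.4% as listed and from 7.20% to 17.6% after merging, with chromosome 11 at the top in both.

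Along the chromosomes, which in the mouse have the centromere at one end, the runs were concentrated toward the far end. With each chromosome cut into 10 parts of equal length, the last part held 566 runs (18.7%) and 15.9% of autosomal peaks. The first part held 125 runs (4.14%) and 5.15% of peaks. The parts, and the 1 Mb windows below, included unsequenced bases, where no peak can lie. How these bases were spread over the parts was not counted. The share of peaks in runs was 26.95% in the last part, 24.1% in the one before it and between 17.1% and 22.8% in the other 8. Of 2482 autosomal 1 Mb windows, 2316 contained a peak and 1114 (44.9%) contained the centre of a run. The 185 windows with 5 or more held 1294 runs, 42.8% of all. The window with the most runs, 79 to 80 Mb of chromosome 10, contained 19, with 82 of its 115 peaks in runs and 13 runs after merging, and the adjoining window contained 14. Chromosome 17 also had a window with 14 runs, from 35 to 36 Mb.

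A run ended, by construction, at a distance above 5 kb. The nearest peak outside the run was a median of 12042 bases away, within 10 kb for 1205 runs (39.9%) and beyond 50 kb for 182 (6.02%). The nearest other run was a median of 95123 bases away, within 50 kb for 1003 runs (33.2%) and beyond 1 Mb for 199 (6.59%). In the clustered protocadherins (chromosome 18, neuronal cell-surface genes whose promoters are chosen singly), 55 of 95 peaks (57.9%, against 22.2% of all autosomal peaks) were in 11 runs, of which 8 had at least 3 separate sites. In the 4 Hox clusters (developmental homeobox genes), 5 of the 9 Hoxd peaks formed 1 run, and none of the 8 Hoxa, 17 Hoxb or 4 Hoxc peaks was in a run.

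Run peaks were near gene starts more often than lone peaks as listed. A start lay within 1 kb of the midpoint of 21.4% of run peaks (95% Wilson interval 20.6 to 22.2), 20.2% of pair peaks, 12.8% of peaks alone within 5 kb and 9.15% of peaks more than 50 kb from any other. The same held for 4.17% of the 11968110 autosomal 200-base tiles without gaps in sequence. Run peaks exceeded lone peaks on 19 of 19 autosomes and pair peaks on 9. Binomial intervals treat peaks as independent, which neighbours in a run are not, so they are narrower than the true uncertainty. After merging the shares were 16.5% in runs, 17.7% in pairs and 14.4% alone, and runs exceeded lone sites on 11 of 19 autosomes. Run peaks that overlapped another were near a start in 26.2%, and those that did not in 18.6%.

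Base composition showed the same order. Median G+C was 52.0% in run peaks, 51.0% in pair peaks, 48.0% in lone peaks and 46.0% in peaks more than 50 kb from any other, against a mean of 41.9% over the tiles. As listed it was 51.5% in runs of 3 and 54.0% in runs of 6 or more, whereas merged runs of 3, 4, 5 and 6 or more sites had 50.5%, 52.0%, 51.0% and 51.7%, with no steady rise. After merging it was 51.0% in runs, 50.0% in pairs and 48.5% alone, and the mean G+C of run sites exceeded that of lone sites on 19 of 19 autosomes. CpG-rich peaks made up 17.0% of run peaks, 15.7% of pair peaks and 7.89% of lone peaks as listed. After merging the shares were 11.5%, 12.3% and 9.77%, and runs were above pairs on 8 of 19 autosomes. Exons held 14.6% of run peaks, 12.6% of pair peaks and 8.03% of lone peaks as listed, and 12.1%, 11.2% and 9.17% after merging. Introns held 38.5% of run peaks, 40.3% of pair peaks and 44.0% of lone peaks as listed, and 39.2%, 41.1% and 43.3% after merging. Intergenic sequence held 46.8%, 47.2% and 48.0% as listed, but 48.7%, 47.8% and 47.6% after merging. Merged runs were then above lone sites on 14 of 19 autosomes.

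Taken as whole runs, 1126 of 3021 (37.3%) reached to within 1 kb of a protein-coding start and 1895 (62.7%) did not. Starts of at least 2 genes were reached by 153 runs (5.06% of all runs). A run could reach a start through the bases between its peaks, as at Ptma. No like shares are given for pairs, lone peaks or stretches of equal length, here or for the genes touched below. Among the 1550 runs with at least 3 separate sites the share without a coding start was 63.3%. Of all runs, 1052 (34.8%) lay wholly inside a protein-coding gene and 1093 (36.2%) touched none. In total 2019 of 21418 autosomal protein-coding genes (9.43%) were touched by a run, 139 of them by more than 1.

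The core match was less frequent in run peaks than in lone peaks as listed, and more frequent after merging. As listed, 38.0% of run peaks (95% Wilson interval 37.1 to 38.9) held a match, 37.6% of pair peaks and 43.6% of lone peaks (43.0 to 44.2), against 1.05% of the tiles. Run peaks were below lone peaks on 19 of 19 autosomes. Run peaks that overlapped another had matches in 30.3% and those that did not in 42.4%. After merging, 46.0% of run sites (44.6 to 47.3), 44.1% of pair sites and 43.4% of lone sites (42.9 to 44.0) held a match, and run sites were above lone sites on 15 of 19 autosomes. Merged sites were on average 225 bases wide in runs and 221 alone, and those made of a single interval had matches in 46.2% and 43.6%. What sets the change of direction was not tested.

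**Figure D5:**
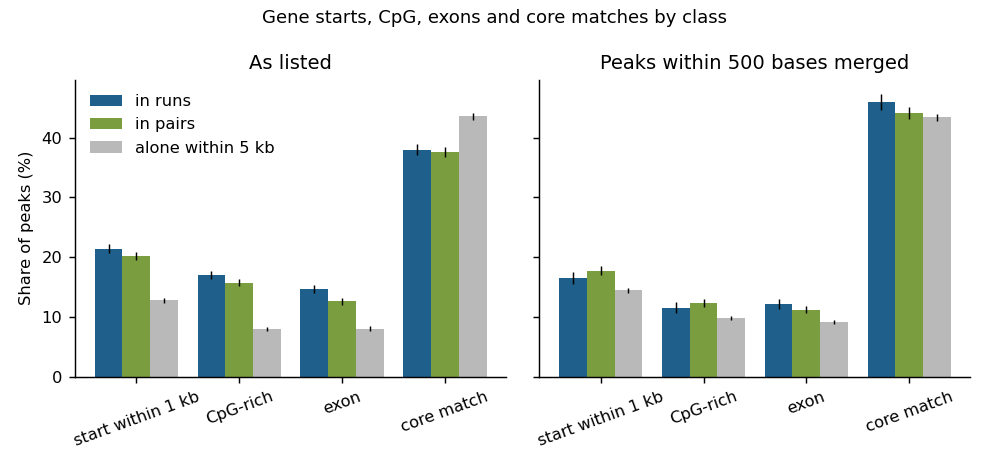
Share of peaks (left) or merged sites (right) with a gene start within 1 kb, CpG-rich sequence, an exon at the midpoint, or a core match (vertical axis, %), for peaks in runs (blue), in pairs (green) and alone within 5 kb (grey); bars start at 0 and lines are 95% Wilson intervals. Core matches stand at 38.0% in runs and 43.6% alone as listed, and at 46.0% and 43.4% after merging.

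Counting each match once, the runs contained 3770 matches. None was found in 762 runs (25.2%), 1 in 1178 (39.0%), 2 in 757 (25.1%), 3 in 242 (8.01%) and 4 or more in 82 (2.71%), with at most 6. The matches were split evenly between strands, with 1913 forward and 1857 reverse. Of 1081 runs with at least 2 matches, 479 (44.3%) had all of them on one strand. Among 1511 pairs of neighbouring matches inside runs, 795 (52.6%) read in the same direction, 424 (28.1%, interval 25.9 to 30.4) diverged and 292 (19.3%, 17.4 to 21.4) converged. In pairs, 495 of 913 (54.2%) read in the same direction, 217 (23.8%) diverged and 201 converged, and for neighbouring matches 5 to 50 kb apart the shares were 51.6%, 26.3% and 22.1%. The Cebpb and Dlx3 runs read reverse at the left and forward at the right. So did the Ptma run, with 3 reverse and then 2 forward matches, and the Mlxipl run, with 2 and 2. In these runs only the neighbours at the change of strand diverged. Their other neighbouring matches read in the same direction. The largest run, on chromosome 10, and the run near 2900026A02Rik had both strands without this layout. The remaining named runs had matches on 1 strand only or none. How many runs of the whole list had this layout was not counted.

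The 4 free positions of the core, counted from 1 at its 5′ end, are positions 4, 5, 8 and 9. Over the 18 autosomes whose sequence was read for this purpose, 3691 run matches spelled 128 different cores. The most frequent core, CCAGAAGAGGGC, made up 1305 of them (35.4%), 33.2% of 4514 matches in pairs and 37.0% of 10430 matches in lone peaks. Position 8 was A in 61.7% of run matches, 62.5% of pair matches and 67.2% of lone matches. It was G in 37.0%, 35.6% and 31.4%, so pairs stood near runs. The core CCAGCAGAGGGC followed with 5.12% in runs, 6.07% in pairs and 5.67% in lone peaks. The core CCACCAGGGGGC made up 4.55% in runs, 3.97% in pairs and 2.91% in lone peaks. The most frequent core is known from the B2 family of short interspersed elements, retrotransposons that have spread CTCF sites in rodent genomes. In runs it was followed by NNCAGAT, letters chosen after the sequences above were seen, in 623 of its 1305 occurrences (47.7%), and the other cores in 7.80% of 2386. In lone peaks these shares were 45.6% and 8.33%. Of 46903 places in these chromosomes with that core, 14.2% were inside a listed peak of any class, and of the other core matches 14.4% were. No repeat annotation was used here, so these places were not assigned to repeats.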

How the data were processed

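The members and lists were chosen with earlier results of these data known. Per the study's methods, the authors trimmed FLAG ChIP-seq reads with fastq-mcf, aligned them to mm9 with Bowtie2, kept reads of mapping quality 30 or more with SAMtools, found peaks in each of the 2 libraries with GEM, and deposited the intervals that overlapped between libraries by at least 1 base, without blacklisted regions. The deposited table gives chromosome, start and end; 49681 intervals are 200 bases wide and 1 is 143. No peak ended beyond the NCBIM37 (mm9) chromosome lengths. The 5C tables and all other libraries were not used here, nor were the read totals that the study tabulates for the FLAG libraries.

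Midpoints were sorted, runs found with Python 3 (pandas, scipy), and the procedure tested on simulated positions. Genes came from GENCODE vM1 on the same build. Exons and introns were read at midpoints. Named runs were the 10 with the most peaks (ties by shorter span), the 3 longest and the 3 shortest. No test was run. Cores were not spelled out for one autosome. Alternatives changed distance, run size, edges, merging, start distance and search width.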

Additional observations from a re-analysis of the deposited data

How the results depend on the processing

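No paired analysis was possible because the list pools both libraries and no result comes from a test. Every count moved with the definition of a run, which is what the rule sets. A limit of 2.5 kb gave 1576 runs with 5268 peaks, a median span of 2073.5 bases and 0.354 (chromosome 14) to 1.15 (chromosome 11) runs per Mb. A limit of 10 kb gave 4683 runs with 18848 peaks, 8848 bases and 1.16 to 3.69 runs per Mb. Requiring 4 peaks gave 1042 runs with 4823 peaks, 6243 bases and 0.211 to 0.994 runs per Mb, and allowing 2 gave 9707 groups with 24132 peaks, 1769 bases and 2.64 to 6.95 per Mb. Merging within 500 bases gave 1536 runs with 5237 sites, 5996.5 bases and 0.316 (chromosome 16) to 1.43 runs per Mb. Measuring between peak edges changed the counts little (3099 runs with 11104 peaks) and the median span to 4421 bases. Chromosome 11 had the most runs per Mb under each of these settings and also the largest share of peaks in runs. The autosome with the fewest varied: as reported, chromosome 3 had the fewest runs per Mb and chromosome 6 the smallest share, and chromosome 16 had the fewest runs per Mb when 4 peaks were required. Peaks more than 100 kb from any other numbered 1700.

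These alternatives were chosen after seeing the data. The excess of run over lone peaks near a start, 8.59 percentage points as reported, was 2.07 after merging, 5.84 without overlapping peaks, 6.73 within 500 bases and 13.4 within 2.5 kb. The difference in core matches, -5.57 points as reported, was -3.73 with 50 more bases searched on each side and -1.14 without overlapping peaks, and it reversed to 2.53 after merging. What sets the reversal was not tested beyond the shares given above for overlapping peaks. With 1 list, no peaks, heights or depth per library were used, and weak peaks could not be told from strong ones.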
